A study of Mus musculus with 12 samples.

Results

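The cytochrome P450 genes of families 1 to 4 were followed in the mouse colon, across knockouts of the 2 ATF6 genes and chemically induced colitis. A gene was included when its current mouse symbol began with Cyp1, Cyp2, Cyp3 or Cyp4 followed by a letter and digits, and when 1 of its probes was well above background on both arrays of at least 1 group. Of 59 such genes with a probe, 41 met this condition, among 23239 genes or unnamed transcripts tested. Where several probes of a gene passed, the brightest was used.

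Whole-colon RNA from male mice of strain C57BL/6J was hybridised to 12 Agilent 1-colour arrays, 2 in each of 6 groups. The groups were ATF6aKO mice given dextran sulfate sodium (DSS), untreated (UT) ATF6aKO mice, ATF6bKO mice given DSS, UT ATF6bKO mice, WT mice titled DSS and WT mice titled UT. DSS is a polymer that injures the colonic epithelium, and it was given at 3% in drinking water over 3 days. ATF6a (gene Atf6) and ATF6b (gene Atf6b) are proteins of the endoplasmic reticulum membrane that are cleaved into transcription factors when unfolded proteins accumulate. The labels name the knockouts by genotype only, with no allele or Cre driver, and give no age. For the 4 WT samples the titles and source names state the opposite treatment to the descriptions and treatment fields. WT samples were therefore grouped by title, and a sign between their groups is not read as a DSS effect.

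Cytochrome P450 enzymes are haem proteins anchored in the membrane of the endoplasmic reticulum, which insert an oxygen atom into their substrates with electrons passed on by a reductase. Families 1 to 3 are known mainly for the oxidation of drugs, plant compounds, steroids and polyunsaturated fatty acids, and family 4 for hydroxylation of fatty acids and leukotrienes at their far end. Liver holds the most P450 protein, and the intestinal epithelium holds a set of its own that meets dietary compounds first. Members of a subfamily usually lie next to each other on a chromosome and are similar in sequence.

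A level below is the log2 processed signal of a probe minus the log2 75th percentile of its array, so a level of 0 is the brightness of that percentile, and differences are on the log2 scale. Levels of different probes are not comparable with each other. A difference was called at an adjusted p under 0.05 in limma, with Benjamini-Hochberg adjustment over all 23239 genes or transcripts. As a check of the labels, Atf6 lay between -3.23 and -3.04 on the 4 ATF6aKO arrays, against 0.60 to 0.93 on the 4 WT arrays (difference -3.92, SE 0.159, limma adjusted p 4.08e-05). Atf6b lay between -7.64 and -4.14 on the 4 ATF6bKO arrays, against -1.10 to 0.16 on WT arrays (limma adjusted p 0.00187), and was above background on 1 of the 4 ATF6bKO arrays, so the size of its fall is not exact. Each genotype was hybridised on a slide and scan of its own, and WT arrays carried an older version of the array design. Differences between genotypes therefore cannot be told apart from slide, scan or design version, whereas the DSS comparisons lie within slides. Nothing in the labels ties the 2 samples of a group to different animals, and p-values may therefore reflect technical spread alone. In whole colon, fewer cells of a type and less RNA per cell cannot be told apart. Probe sequences were not used here, and signal shared between close paralogues cannot be told apart either.

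The 41 genes fell into 16 subfamilies. Cyp2c had 8 members, Cyp2d 6, Cyp4f 5, Cyp2j 4, Cyp2b 3, Cyp3a 3, Cyp2a 2 and Cyp4a 2, and 8 subfamilies had a single member. On all 12 arrays 33 of the 41 were well above background. The remaining 8 were Cyp1a1, Cyp2a4, Cyp2a5, Cyp2b9, Cyp2b13, Cyp3a41a, Cyp4a12a and Cyp4f39, and of these Cyp2a5, Cyp2b13 and Cyp4f39 passed through 1 group only. The 18 genes with a probe that did not pass included Cyp1a2 and Cyp1b1, partners of Cyp1a1 in aromatic hydrocarbon metabolism, and Cyp2b10, the classical target of the constitutive androstane receptor. The whole Cyp2d set on the array passed, 6 of 6 genes, whereas 3 of 6 Cyp3a genes and 2 of 6 Cyp4a genes did.

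Several subfamilies lie together in the genome by the RefSeq annotation of GRCm38.p6. The 6 Cyp2d members lie on chromosome 15 in the order Cyp2d22, Cyp2d10, Cyp2d9, Cyp2d12, Cyp2d34 and Cyp2d26, in a span of 9 coding genes of which 8 are Cyp2d genes. The 4 Cyp2j members lie on chromosome 4 in a span of 6 coding genes, all Cyp2j. The 8 Cyp2c members lie on chromosome 19 in a wider span with 52 coding genes of other kinds, and 4 of the 5 Cyp4f members lie on chromosome 17, with Cyp4f18 on chromosome 8. RefSeq start-site sequences were found for 34 of the 41 members (39 entries) and were searched in the 250 bases before the start, on both strands, for 4 motifs. The TATA box TATAAA was present in 33.3% of member entries, against 12.4% of 32851 promoters of all genes. The nuclear receptor half-site AGGTCA was present in 20.5% of member entries, against 14% of all promoters. The aryl hydrocarbon receptor core GCGTG was in 20.5% of member entries, against 28.2% of all promoters. The CDX type motif TTTAT, whose reverse complement ATAAA lies inside TATAAA, was in 61.5% of member entries, against 37.3% of all promoters. Members of a subfamily share promoter sequence by descent, so entries are not independent, and a match is only a match of letters.

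The first comparison asked which of these enzymes differed between DSS and UT colon in the knockout mice, with 4 arrays a side and the genotype as a term. The enzymes that fell were mainly of the Cyp2d and Cyp4f subfamilies, together with the colon epoxygenase Cyp2c55, the epithelial Cyp2s1 and the intestinal Cyp3a13. The largest fall among members measured on every array was that of Cyp2d26, to 0.46 in DSS colons, against 2.06 in UT colons, a 3.04-fold difference. Only Cyp2j9 and Cyp2c37 rose, by 0.66 and 0.97 on the log2 scale. In all 13 of 41 members passed (31.7%), 2 higher and 11 lower in DSS, beside 29.1% of all genes tested, 13.3% higher and 15.8% lower. The median difference was -0.441 over the members and -0.0103 over all genes, although with normexp background correction, which moved the median of all genes to 0.113, the member median was 0.032 and the 15 members called split into 5 higher and 10 lower. With single arrays left out the count was 4 without ATF6bKO UT replicate 1, 7 without ATF6bKO DSS replicate 1, 5 without ATF6bKO DSS replicate 2, 3 without ATF6aKO DSS replicate 1 and 8 without ATF6aKO UT replicate 2. Between 16.6% and 24.4% of all genes passed in these 5 removals. Cyp2d26, Cyp2j9 and Cyp4f16 passed in each of the 8 removals, while each of the other 10 was lost in at least 3.

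**Figure D1:**
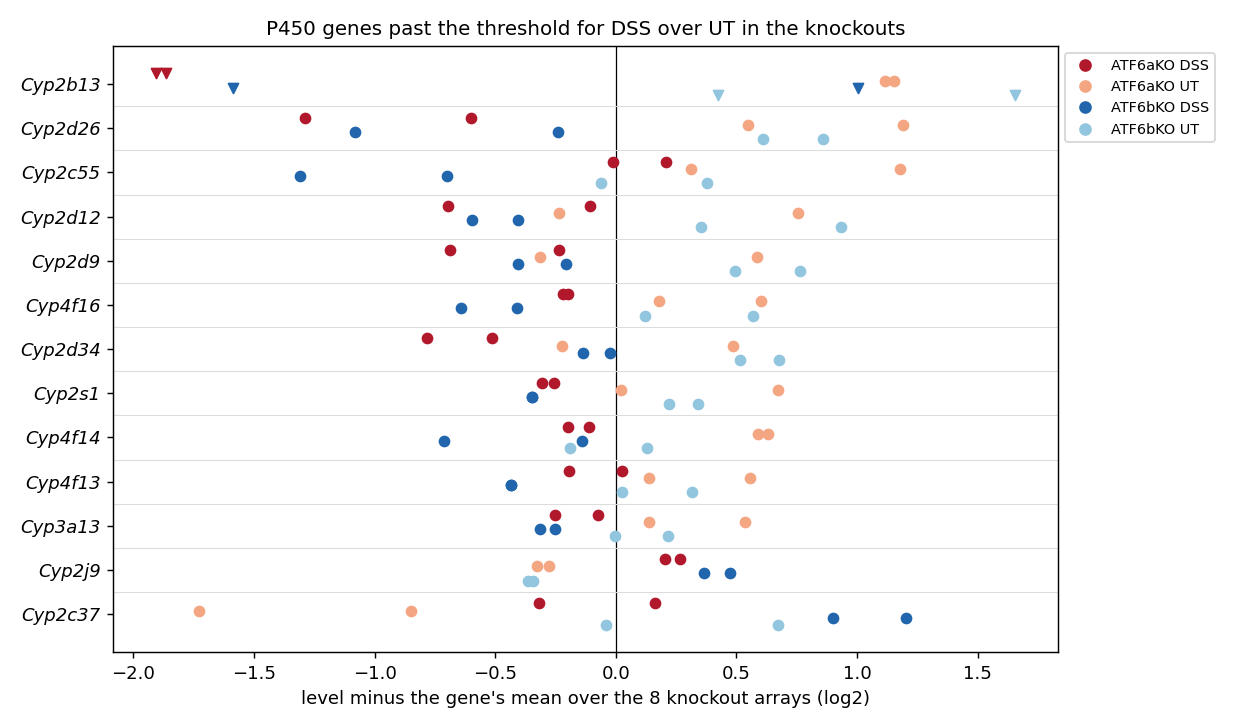
Level minus the gene's mean over the 8 knockout arrays, on the log2 scale (x axis), of the 13 P450 genes called between DSS and UT knockout colons (rows), with 1 point per array, coloured by group; triangles mark groups in which not both arrays were above background. All 4 DSS points lie below all 4 UT points for Cyp2d26, Cyp4f16, Cyp2s1 and Cyp3a13, and above them for Cyp2j9.

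Cell type markers moved with the same contrast. All 10 of 10 neutrophil markers rose in DSS, with a summed log2 level of 1.94 to 2.47 in ATF6aKO DSS arrays, against 0.12 to 0.13 in ATF6aKO UT arrays, and of 4.65 to 4.73 in ATF6bKO DSS arrays, against -0.82 to 0 in ATF6bKO UT arrays. Of the monocyte and macrophage markers 8 of 9 rose, and of fibroblast markers 8 of 9 and endothelial markers 7 of 8. Of all genes 13.3% were called higher in DSS and 15.8% lower. The general epithelial markers gave a summed level of 10.77 to 10.85 in DSS arrays, against 10.33 to 10.56 in UT arrays. Of 9 measured, 4 rose and none fell. Muc2 was not among the genes tested, for lack of a matched probe or of signal, which were not told apart. Of 11 absorptive colonocyte markers 1 rose and 3 fell, and their summed level was 9.45 to 9.97 in DSS arrays, against 9.68 to 9.86 in UT arrays. Muc3 was likewise not among the genes tested. The part of these markers in the P450 differences was not tested.

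Of the 6 members of the Cyp2d subfamily, the mouse relatives of the human drug-metabolising enzyme CYP2D6, 4 fell in DSS colons. Beside this count stand 15.8% of all genes called lower. All 6 Cyp2d members had a negative difference over both knockouts under each of the 4 scalings used, while Cyp2d10 differed by 0.03 in ATF6aKO alone. Of the 4 calls, Cyp2d26 alone passed in every removal of 1 array. Cyp2d26 read -0.03 and 0.66 in ATF6aKO DSS and 1.02 and 0.18 in ATF6bKO DSS, against 1.81 and 2.45 in ATF6aKO UT and 2.12 and 1.87 in ATF6bKO UT. The groups did not overlap, and the difference was -1.60 (SE 0.266, limma adjusted p 0.00635). Cyp2d34 read 4.23 and 4.50 in ATF6aKO DSS and 4.99 and 4.88 in ATF6bKO DSS, against 4.79 and 5.50 in ATF6aKO UT and 5.69 and 5.53 in ATF6bKO UT. Within each genotype its DSS arrays were lower, and the ATF6bKO DSS pair overlapped the ATF6aKO UT pair (difference -0.73, SE 0.165, limma adjusted p 0.0184). Cyp2d9, a testosterone hydroxylase known from male liver, read 3.45 and 3.90 in ATF6aKO DSS and 3.73 and 3.93 in ATF6bKO DSS, against 3.82 and 4.72 in ATF6aKO UT and 4.90 and 4.63 in ATF6bKO UT. One UT array of ATF6aKO lay among the DSS values (difference -0.77, SE 0.223, limma adjusted p 0.0411), and a second Cyp2d9 probe gave -0.74. Cyp2d12 read 1.56 and 2.15 in ATF6aKO DSS and 1.66 and 1.85 in ATF6bKO DSS, against 2.02 and 3.01 in ATF6aKO UT and 3.19 and 2.61 in ATF6bKO UT. Its groups overlapped at 1 array on each side (difference -0.90, SE 0.271, limma adjusted p 0.0454). The 2 Cyp2d members that did not pass were Cyp2d22 at -0.66 (limma adjusted p 0.146) and Cyp2d10 at -0.11 (limma adjusted p 0.8).

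Sequences before the start sites are shown for the Cyp2d genes with an entry among those above, to set Cyp2d26, which had the largest difference, beside Cyp2d9 and Cyp2d10, since Cyp2d10 did not pass. The windows are from RefSeq on GRCm38.p6, at chr15:82794246-82794495 on the minus strand for Cyp2d26, chr15:82452127-82452376 on the plus strand for Cyp2d9 and chr15:82407195-82407444 on the minus strand for Cyp2d10. Each is written 5′ to 3′ toward the start site, with capitals marking TATAAA on either strand.
Cyp2d26: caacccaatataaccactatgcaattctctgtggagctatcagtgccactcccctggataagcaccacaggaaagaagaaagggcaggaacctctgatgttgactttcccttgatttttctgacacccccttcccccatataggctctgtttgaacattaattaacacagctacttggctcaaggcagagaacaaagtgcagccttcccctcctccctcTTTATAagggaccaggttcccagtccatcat
Cyp2d9: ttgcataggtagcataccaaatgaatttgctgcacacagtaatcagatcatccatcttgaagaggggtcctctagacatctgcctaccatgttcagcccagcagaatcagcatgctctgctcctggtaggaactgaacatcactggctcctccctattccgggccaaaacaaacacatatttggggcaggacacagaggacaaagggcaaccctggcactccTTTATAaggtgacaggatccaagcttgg
Cyp2d10: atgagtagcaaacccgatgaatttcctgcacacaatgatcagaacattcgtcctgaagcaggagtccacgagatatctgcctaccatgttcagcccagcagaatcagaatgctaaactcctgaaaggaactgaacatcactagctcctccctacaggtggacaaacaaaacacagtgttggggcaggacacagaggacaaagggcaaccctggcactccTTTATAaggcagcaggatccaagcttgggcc
The TATAAA letters, on the reverse strand, lie 31 bases before the start in Cyp2d26, 28 in Cyp2d9 and 31 in Cyp2d10. In pairwise alignment Cyp2d9 and Cyp2d10 were 82.7% identical over these windows, Cyp2d26 and Cyp2d10 54.8%, and Cyp2d26 and Cyp2d9 51.1%.

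**Figure D2:**
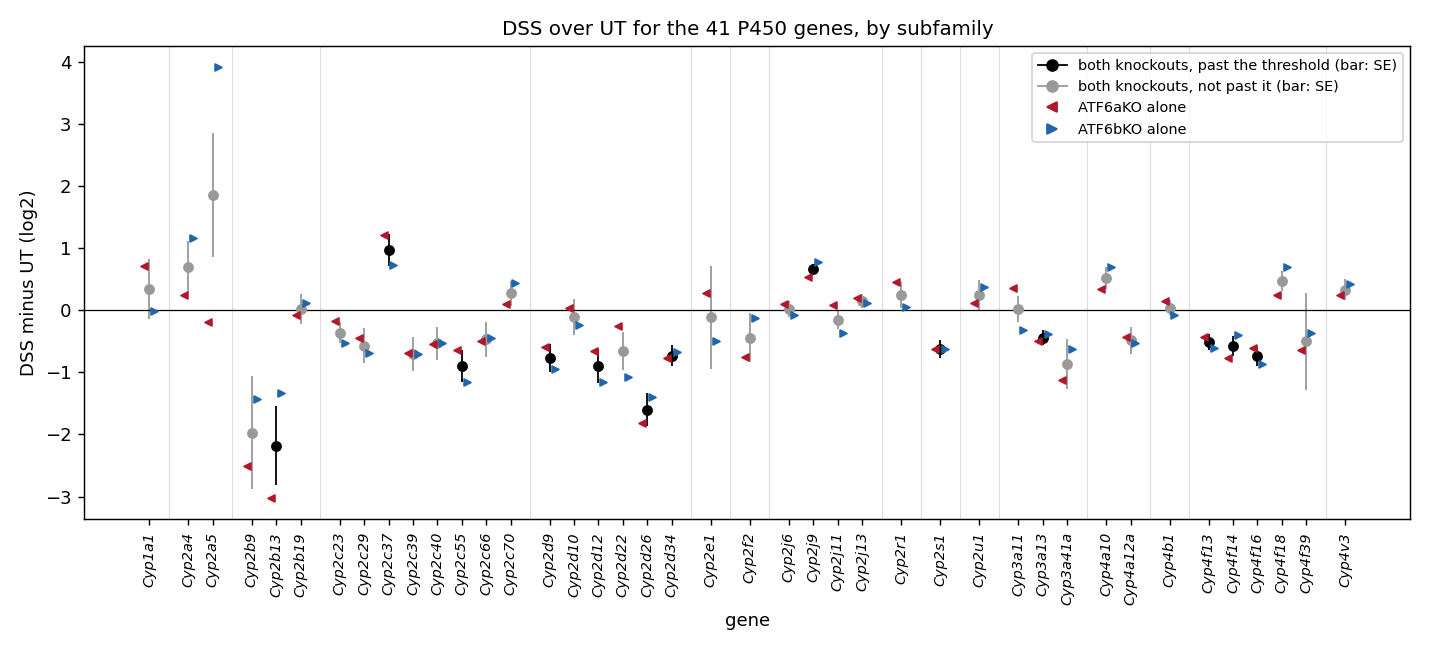
Difference in log2 level, DSS minus UT (y axis), for each of the 41 P450 genes, arranged by subfamily (x axis), with circles and SE bars for both knockouts together, black for genes called at an adjusted p under 0.05 and grey for the others, and triangles for each knockout alone. The 6 Cyp2d circles all lie below 0, and the Cyp2c circles lie on both sides.

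The Cyp2c genes, whose products mostly oxidise arachidonic acid in mouse tissues, did not move as 1 group. Of 8 members 1 rose and 1 fell, with 6 negative and 2 positive differences. Beside these stand 13.3% of all genes called higher and 15.8% called lower. Cyp2c55, an epoxygenase known for its expression in colon, read 4.43 and 4.65 in ATF6aKO DSS and 3.13 and 3.74 in ATF6bKO DSS, against 4.75 and 5.62 in ATF6aKO UT and 4.82 and 4.38 in ATF6bKO UT. The DSS arrays were lower within each genotype, and 1 UT array of ATF6bKO lay below the ATF6aKO DSS pair (difference -0.90, SE 0.253, limma adjusted p 0.0363). Cyp2c37 read -3.54 and -4.02 in ATF6aKO DSS and -2.80 and -2.50 in ATF6bKO DSS, against -5.43 and -4.55 in ATF6aKO UT and -3.74 and -3.03 in ATF6bKO UT. It was higher in DSS within each genotype (difference 0.97, SE 0.265, limma adjusted p 0.0332), although its second probe gave 0.31. Cyp2c39, which oxidises retinoic acid, differed by -0.70 (limma adjusted p 0.0981). Cyp2c29 and Cyp2c40 differed by -0.57 and -0.53 without passing, at limma adjusted p of 0.176 and 0.174.

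Beside 29.1% of all genes called, of the 4 Cyp2j epoxygenases only Cyp2j9 passed. It read -0.64 and -0.70 in ATF6aKO DSS and -0.54 and -0.43 in ATF6bKO DSS, against -1.23 and -1.18 in ATF6aKO UT and -1.25 and -1.27 in ATF6bKO UT. The replicates lay close together and the groups did not overlap, so that this small rise had the lowest adjusted p of the 41 members (difference 0.66, SE 0.0891, limma adjusted p 0.00344). Cyp2j6, Cyp2j11 and Cyp2j13 differed by 0.02, -0.15 and 0.15, while a second Cyp2j13 probe gave 0.83.

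The Cyp4f enzymes inactivate leukotriene B4, a chemoattractant of neutrophils, and other fatty acid mediators. Of 5 members 3 fell, beside 15.8% of all genes called lower. Of these 3 calls, only that of Cyp4f16 was kept in every removal of 1 array. Cyp4f16 read -0.07 and -0.05 in ATF6aKO DSS and -0.26 and -0.49 in ATF6bKO DSS, against 0.33 and 0.75 in ATF6aKO UT and 0.72 and 0.27 in ATF6bKO UT. The groups did not overlap (difference -0.74, SE 0.152, limma adjusted p 0.0134), and the second probe gave -0.55. Cyp4f14, a leukotriene B4 hydroxylase, read 2.68 and 2.59 in ATF6aKO DSS and 2.65 and 2.08 in ATF6bKO DSS, against 3.42 and 3.38 in ATF6aKO UT and 2.60 and 2.92 in ATF6bKO UT. One UT array of ATF6bKO lay among the DSS values (difference -0.58, SE 0.159, limma adjusted p 0.0338). Cyp4f13 read 0.68 and 0.90 in ATF6aKO DSS and 0.44 and 0.44 in ATF6bKO DSS, against 1.01 and 1.43 in ATF6aKO UT and 1.19 and 0.90 in ATF6bKO UT. Its highest DSS array and lowest UT array were level (difference -0.51, SE 0.13, limma adjusted p 0.0259). Cyp4f18, which is known for leukotriene hydroxylation in neutrophils, had a positive difference of 0.47 that did not pass (limma adjusted p 0.0698), beside the neutrophil markers that all rose. Cyp4f39, known for skin ceramides, differed by -0.50 (limma adjusted p 0.657) and was near background.

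Cyp2s1, an enzyme of epithelia that face the environment, read 3.96 and 4.01 in ATF6aKO DSS and 3.92 and 3.92 in ATF6bKO DSS, against 4.29 and 4.94 in ATF6aKO UT and 4.61 and 4.49 in ATF6bKO UT. All DSS arrays lay below all UT arrays (difference -0.63, SE 0.144, limma adjusted p 0.0188). Cyp3a13, a member of the main drug-metabolising subfamily that is expressed in intestine, read 2.45 and 2.63 in ATF6aKO DSS and 2.45 and 2.39 in ATF6bKO DSS, against 2.84 and 3.24 in ATF6aKO UT and 2.92 and 2.70 in ATF6bKO UT. Its groups also did not overlap (difference -0.44, SE 0.119, limma adjusted p 0.0323). Among the subfamilies with a single member, Cyp2e1, the ethanol oxidase, ranged from -3.28 to 0.64 within the ATF6aKO DSS pair. The summed level of adipocyte markers on those arrays ranged from 2.51 to 6.13, and Cyp2e1 differed by -0.11 between DSS and UT (limma adjusted p 0.933).

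Cyp2b9 and Cyp2b13, forms known from female mouse liver, were dim in these male colons. Cyp2b13 read -8.30 and -8.34 in ATF6aKO DSS and -8.02 and -5.43 in ATF6bKO DSS, none well above background, against -5.32 and -5.28 in ATF6aKO UT and -4.78 and -6.01 in ATF6bKO UT, where 3 of 4 arrays were. It was at least 1.39-fold lower in DSS (limma adjusted p 0.0407), a bound set by the dimmest signal counted as above background, and it passed the background condition only through ATF6aKO UT, where it was high. Under normexp correction the difference was 0.01 and did not pass. Cyp2b9 read -6.87 and -6.59 in ATF6aKO DSS and -8.07 and -3.53 in ATF6bKO DSS, against -4.68 and -3.75 in ATF6aKO UT and -4.07 and -4.66 in ATF6bKO UT. The ATF6bKO DSS pair spread more widely than the distance between groups, and the difference did not pass (limma adjusted p 0.145). Cyp2b9 also met the background condition only through UT groups of the knockouts. Cyp2b19, an epoxygenase of keratinocytes, differed by 0.02 (limma adjusted p 0.948).

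The start-site windows of these dim genes are shown because the sequences of the pair are nearly the same. They are from RefSeq on GRCm38.p6, plus strand, at chr7:26173159-26173408 for Cyp2b9 and chr7:26061245-26061494 for Cyp2b13, with the half-site AGGTCA in capitals.
Cyp2b9: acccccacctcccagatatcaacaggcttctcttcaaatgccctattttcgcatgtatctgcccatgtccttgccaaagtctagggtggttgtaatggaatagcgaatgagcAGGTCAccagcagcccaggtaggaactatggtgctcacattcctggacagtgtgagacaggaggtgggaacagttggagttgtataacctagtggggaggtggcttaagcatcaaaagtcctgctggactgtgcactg
Cyp2b13: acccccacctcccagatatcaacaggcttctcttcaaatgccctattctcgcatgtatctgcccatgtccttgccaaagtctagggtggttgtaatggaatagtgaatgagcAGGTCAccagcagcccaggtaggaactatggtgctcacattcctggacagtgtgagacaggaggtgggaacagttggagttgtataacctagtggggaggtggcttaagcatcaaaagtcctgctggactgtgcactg
The windows were identical at 248 of 250 positions (99.2%), and the AGGTCA letters lie 138 bases before the start in both.

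In the ATF6aKO colons alone, with 2 arrays a side, Cyp2d26 was the only member that passed (2.44% of members, beside 6.33% of all genes, 2.88% higher and 3.45% lower). Its difference was -1.81 (SE 0.389, limma adjusted p 0.0311), a 3.52-fold lower mean in DSS. It did not pass when any 1 of the 4 ATF6aKO arrays was left out, when 183 to 445 genes in all passed. Cyp2b13 missed the threshold at a limma adjusted p of 0.0532 and Cyp2b9 missed it at 0.235. Their computed bounds were at least 1.71-fold lower in DSS for Cyp2b13 and at least 3.61-fold lower for Cyp2b9. Both genes met the background condition only through UT groups of the knockouts, so a difference from DSS was built into their inclusion. Neither bound is a result.

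In the ATF6bKO colons 4 members passed (9.76%, beside 12.9% of all genes, 5.7% higher and 7.21% lower), 2 higher and 2 lower in DSS, whereas with normexp correction 4 passed, all lower, and with quantile normalization 6 did, 3 higher and 3 lower. Cyp2d26 fell by 1.39 (SE 0.389, limma adjusted p 0.0485), Cyp4f16 fell by 0.87 (SE 0.235, limma adjusted p 0.0428), and Cyp2j9 rose by 0.78 (SE 0.198, limma adjusted p 0.0351). Cyp2a5, the mouse coumarin hydroxylase, read -5.61 and -2.35 in ATF6bKO DSS, against -7.70 and -8.07 in ATF6bKO UT. Both DSS arrays were well above background and neither UT array was, and its other groups lay between -8.38 and -6.94, none above background. It was at least 3.12-fold higher in DSS (limma adjusted p 0.0199), but it entered the list only through this group and so had to differ there. The fitted difference of 3.91 was 2.28 without ATF6bKO DSS replicate 2 (limma adjusted p 0.0369), 0.73 under normexp correction, where it did not pass, and it did not pass without ATF6bKO UT replicate 1 or replicate 2. The count of 4 became 0 without UT replicate 1, 1 without UT replicate 2, 2 without DSS replicate 1 and 3 without DSS replicate 2. The other Cyp2a member, the steroid hydroxylase Cyp2a4, read -5.16 and -4.34 in ATF6bKO DSS, both above background, against -5.81 and -6.02 in ATF6bKO UT, neither above background. Cyp2a4 was at least 1.82-fold higher without passing (limma adjusted p 0.156).

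The windows before the Cyp2a4 and Cyp2a5 start sites are shown because their levels differ across the groups although the sequences are close. They are from RefSeq on GRCm38.p6, plus strand, at chr7:26306942-26307191 for Cyp2a4 and chr7:26835089-26835338 for Cyp2a5, with TATAAA in capitals.
Cyp2a4: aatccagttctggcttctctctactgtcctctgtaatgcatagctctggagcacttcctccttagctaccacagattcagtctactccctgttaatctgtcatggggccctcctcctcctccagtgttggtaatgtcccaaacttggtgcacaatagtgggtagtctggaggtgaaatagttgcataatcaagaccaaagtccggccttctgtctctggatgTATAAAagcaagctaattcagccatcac
Cyp2a5: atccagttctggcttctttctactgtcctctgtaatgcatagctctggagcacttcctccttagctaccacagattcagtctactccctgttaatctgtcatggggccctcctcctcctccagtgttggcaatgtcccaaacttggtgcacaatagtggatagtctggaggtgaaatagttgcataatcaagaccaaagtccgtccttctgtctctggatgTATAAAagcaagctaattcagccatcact
In alignment 97.6% of positions were identical. The TATAAA letters lie 28 bases before the start in Cyp2a4 and 29 in Cyp2a5.

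The difference in DSS response between the knockouts was tested directly. In limma no member passed, and no gene of the 23239 did, with 1 member and 1854 genes at an unadjusted p under 0.05. The member was Cyp2a5 (limma adjusted p 0.439), which among the knockout groups was above background in ATF6bKO DSS only, so that neither the direction nor the size of its difference in response is a result. For Cyp2d26 the responses differed by -0.42 (SE 0.55), and for Cyp2j9 by -0.25 (SE 0.28). One member passed when ATF6bKO DSS replicate 1 was left out.

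The 2 WT groups, on 1 slide, differed in 6 P450 enzymes, of which Cyp3a13 and Cyp2s1 were also called in the knockouts. By the titles, the intestinal Cyp2c66 and Cyp3a13, the vitamin D hydroxylase Cyp2r1 and Cyp4b1, a form known from lung, were lower in titled DSS than in titled UT, and Cyp2s1 and Cyp2f2, an enzyme of airway club cells, were higher. Under the descriptions each sign turns. In all 6 of 41 members passed (14.6%, beside 31.8% of all genes, 14.8% higher and 17% lower in titled DSS). Cyp2c66 read 2.31 and 2.46 in WT titled DSS, against 4.30 and 4.82 in WT titled UT (difference -2.18, SE 0.395, limma adjusted p 0.00606). Cyp3a13 read 2.93 and 3.35, against 5.04 and 4.51 (difference -1.64, SE 0.242, limma adjusted p 0.00304). These 2 genes passed whichever WT array was left out. The level of Cyp2r1 was -3.14 and -3.04 in titled DSS, against -1.30 and -2.14 in titled UT (difference -1.37, limma adjusted p 0.0171). That of Cyp4b1 was -1.42 and -1.48 in titled DSS, against -0.78 and 0.40 in titled UT (difference -1.26, limma adjusted p 0.022), and the difference was -0.67 without titled UT replicate 2. On the higher side, Cyp2s1 read 4.88 and 4.78 in titled DSS, against 3.42 and 4.06 in titled UT (difference 1.09, SE 0.259, limma adjusted p 0.0151). Cyp2f2 read 1.20 and 1.29 in titled DSS, against -0.59 and -0.10 in titled UT (difference 1.59, SE 0.508, limma adjusted p 0.0422). None of the 6 had overlapping groups, but with 2 arrays a side this also held for members that were not called, among them Cyp2c23, Cyp2d9, Cyp2j6 and Cyp4f13. Fewer members passed without either titled DSS array or titled UT replicate 1, and more without titled UT replicate 2.

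Cyp2d26, at -0.03 to 1.02 in the knockout DSS arrays, was at 2.34 and 2.39 in WT titled DSS, against 2.03 and 2.85 in WT titled UT, and the WT groups overlapped (difference -0.07, SE 0.389). Of the 13 members called in the knockouts, 7 had the same sign in the WT difference by titles and 1 of these, Cyp3a13, passed. The other 6 had the opposite sign and 1 of these, Cyp2s1, passed. Under the descriptions the 7 and the 6 change places, so the split is not read as sharing or not sharing a DSS effect. The share of all genes with the same sign was not computed. Of 5 measured small intestine markers 2 were called lower in titled DSS and none higher, beside 31.8% of all genes called. Their summed level, to which bright probes add most, was 6.48 to 6.80 in titled DSS, against 8.24 to 8.95 in titled UT. The part of these markers in the Cyp2c66 and Cyp3a13 differences was not tested. Of their 8 genes, Apoa4, Apoc3 and Defa24 were not among the genes tested.

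Across genotypes, the knockout colons had less signal than WT colons for Cyp2c66, Cyp2c55, Cyp3a13, Cyp3a41a and Cyp4f14, and more for Cyp1a1, Cyp2b9 and Cyp2c39, in both knockouts. Cyp2b19, Cyp2d26, Cyp2j6, Cyp2j13 and Cyp4a12a were also called lower in both. The limits given below apply to both sets of genes. Cyp1a1, Cyp2b9, Cyp3a41a and Cyp4a12a met the background condition only through the side where they were higher, so they had to differ. In ATF6bKO the calls of Cyp2b9 and Cyp2c39 were not kept through every removal of 1 array. Their differences then ran from 1.95 to 3.77 and from 0.75 to 1.17. Both comparisons use the same 4 WT arrays, so they do not support each other, and slide, scan and design version move with them. In ATF6aKO over WT 19 members passed (46.3%, beside 35.3% of all genes, 14.7% higher and 20.6% lower), 5 higher and 14 lower. In ATF6bKO over WT 17 passed (41.5%, beside 29.3% of all genes, 13.7% higher and 15.5% lower), 6 higher and 11 lower. These counts include dim members that met the background condition only through the side where they were higher, and so had to differ. Of the 33 members well above background on all arrays, 14 passed in ATF6aKO (42.4%), 3 higher and 11 lower. In ATF6bKO 12 of the 33 passed (36.4%), 3 higher and 9 lower. Scaling changed the split over all members. In the authors' value table, where the median of all genes was 0.565 and 0.598 above WT, 7 of 37 members were higher and 6 lower in ATF6aKO (35.1%, beside 54.1% of all genes), and 7 higher and 5 lower in ATF6bKO (32.4%, beside 48.9%). With normexp correction, which moved that median to 0.117 and 0.342, 6 were higher and 10 lower in ATF6aKO (39%, beside 29.7% of all genes), and 12 higher and 10 lower in ATF6bKO (53.7%, beside 53.2%). Of the genes named first, Cyp3a13 in both knockouts and Cyp2c55 and Cyp4f14 in ATF6aKO did not pass in the value table, at -0.51, -0.69, -0.62 and -0.32, and Cyp3a41a in ATF6bKO did not pass with normexp, at -0.04. Quantile normalization left Cyp2b9 in ATF6bKO at a limma adjusted p of 0.0507. Grouping WT by descriptions leaves the differences as they are but changed the calls. Then 17 members passed in ATF6aKO (41.5%, beside 24.8% of all genes) and 14 in ATF6bKO (34.1%, beside 21.4%). Cyp3a13 in both knockouts, and Cyp2b9 and Cyp2c39 in ATF6bKO, did not pass under the descriptions. With single arrays left out, 14 to 20 passed for ATF6aKO, and for ATF6bKO 11 passed without WT titled DSS replicate 1 or ATF6bKO UT replicate 1, and 10 without WT titled DSS replicate 2 or ATF6bKO UT replicate 2.

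**Figure D3:**
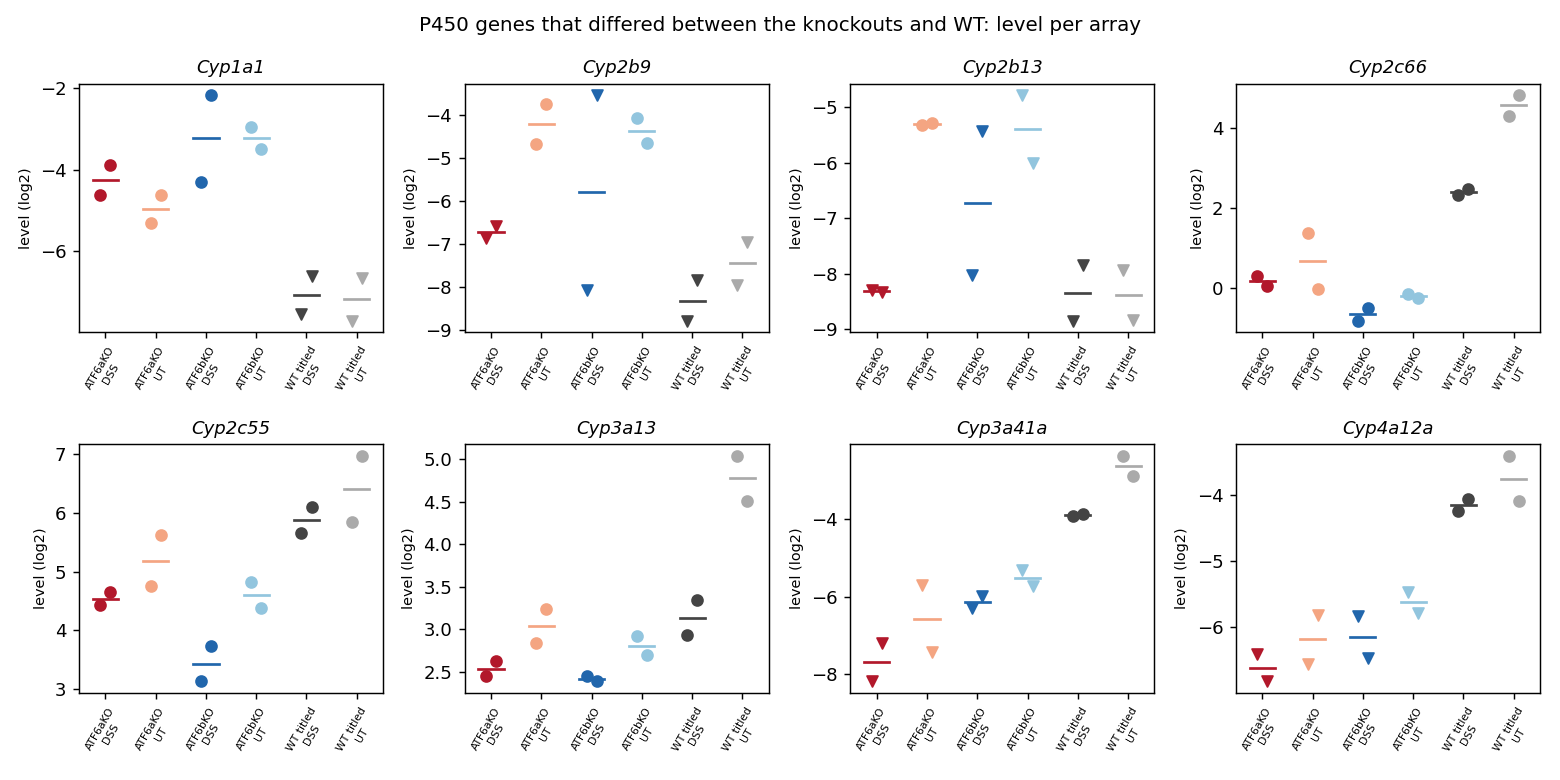
Log2 level relative to the array's 75th percentile (y axis) of 8 P450 genes in the 6 groups (x axis), with 1 point per array and a line at each group mean; triangles mark groups in which not both arrays were above background. Cyp1a1 is above background on all 8 knockout arrays and on no WT array, and Cyp4a12a on the 4 WT arrays only.

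Cyp1a1, the classical target of the aryl hydrocarbon receptor, which oxidises polycyclic aromatic compounds, read -4.61 and -3.89 in ATF6aKO DSS and -5.31 and -4.62 in ATF6aKO UT. In ATF6bKO it read -4.30 and -2.16 in DSS and -2.94 and -3.48 in UT. The WT arrays read -7.54 and -6.60 in titled DSS and -7.71 and -6.66 in titled UT, none well above background. Cyp1a1 was at least 2.98-fold higher in ATF6aKO (limma adjusted p 0.00163) and at least 7.82-fold higher in ATF6bKO (limma adjusted p 0.00244) than in WT. These bounds hold under the main scaling only. The smallest log2 differences over the alternatives were 0.74 in ATF6aKO and 1.6 in ATF6bKO, both of which passed. Cyp1a1 met the background condition only through the knockout groups, so a difference from WT was built into its inclusion. Between DSS and UT it differed by 0.35 (limma adjusted p 0.617). Its start-site window, on GRCm38.p6 at chr9:57697363-57697612 on the plus strand, is shown from RefSeq because of the receptor that is known to control it, with GCGTG and TATAAA in capitals.
Cyp1a1: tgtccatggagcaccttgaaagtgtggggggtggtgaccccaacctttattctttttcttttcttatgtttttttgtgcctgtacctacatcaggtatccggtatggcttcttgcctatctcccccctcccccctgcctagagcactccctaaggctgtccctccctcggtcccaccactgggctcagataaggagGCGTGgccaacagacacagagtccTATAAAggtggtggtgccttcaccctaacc
The GCGTG letters lie 54 bases and TATAAA lies 30 bases before the start site.

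The sensors of foreign compounds were set beside these genes from a list of 21 measured regulators. In each knockout 7 of the 21 passed against WT, 4 higher and 3 lower, beside 35.3% of all genes in ATF6aKO and 29.3% in ATF6bKO. Ahr, the aryl hydrocarbon receptor, differed by 0.07 in ATF6aKO and 0.05 in ATF6bKO (limma adjusted p 0.842 and 0.918). Nr1i3, the constitutive androstane receptor that controls Cyp2b genes in liver, was higher by 1.60 in ATF6aKO (limma adjusted p 0.00162) and by 3.60 in ATF6bKO (limma adjusted p 0.000605) than in WT. Cyp2b10, its classical target, did not meet the background condition in any group. The part of these regulators in the P450 differences was not tested. Cyp2b9 was at least 1.64-fold higher in ATF6aKO (limma adjusted p 0.00454) and at least 2.15-fold higher in ATF6bKO (limma adjusted p 0.0455), with WT levels of -8.79 and -7.85 in titled DSS and -7.95 and -6.95 in titled UT, none above background. Cyp2b13 was at least 1.09-fold higher in ATF6bKO (limma adjusted p 0.0306) and did not pass in ATF6aKO (limma adjusted p 0.0707). WT arrays of Cyp2b13 lay between -8.85 and -7.85, none above background. Both Cyp2b genes passed the background condition only through knockout groups. Cyp2b19 was lower, at -5.05 to -4.80 in ATF6aKO and -4.95 to -3.80 in ATF6bKO, against -3.78 to -2.67 in WT. Its differences were -1.60 for ATF6aKO (limma adjusted p 0.00173) and -1.08 for ATF6bKO (limma adjusted p 0.0376), neither of which passed under normexp correction, at -0.45 and 0.05. The ATF6bKO value was -0.44 in the authors' value table and did not pass there either.

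Cyp2c66, an arachidonic acid oxidase of the intestine, had the largest difference among members measured on every array. It read 0.29 and 0.05 in ATF6aKO DSS, 1.37 and -0.04 in ATF6aKO UT, -0.82 and -0.49 in ATF6bKO DSS and -0.16 and -0.25 in ATF6bKO UT. The WT arrays read 2.31 and 2.46 in titled DSS and 4.30 and 4.82 in titled UT, all above every knockout array. The difference was -3.05 for ATF6aKO (SE 0.414, limma adjusted p 0.00159) and -3.91 for ATF6bKO (SE 0.357, limma adjusted p 0.00102). Small intestine markers differed beside it. Their summed level was 3.53 to 5.62 in the knockouts, against 6.48 to 8.95 in WT, and 3 of the 5 measured fell and 1 rose in each knockout, with Fabp2, a fatty acid binding protein of enterocytes, at -3.37 in ATF6aKO and -3.63 in ATF6bKO. Of 11 absorptive colonocyte markers 3 fell and 1 rose in ATF6aKO and 6 fell in ATF6bKO, among them the carbonic anhydrase Car1 by 2.48, and their summed level was 9.45 to 9.97 in the knockouts, against 9.78 to 10.74 in WT. Of 9 fibroblast markers 5 rose in each knockout, with a summed level of 7.14 to 8.36, against 6.78 to 7.79 in WT. Beside these marker counts stand 35.3% of all genes called in ATF6aKO and 29.3% in ATF6bKO. The part of the markers in the P450 differences was not tested.

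Cyp2c55 read 4.43 and 4.65 in ATF6aKO DSS and 4.75 and 5.62 in ATF6aKO UT, and 3.13 and 3.74 in ATF6bKO DSS and 4.82 and 4.38 in ATF6bKO UT, against 5.65 and 6.09 in WT titled DSS and 5.85 and 6.97 in WT titled UT. Every knockout array lay below every WT array. It fell by 1.28 in ATF6aKO (limma adjusted p 0.0123) and by 2.12 in ATF6bKO (limma adjusted p 0.00397). Other Cyp2c genes went either way. Cyp2c37 was at -5.43 to -3.54 in ATF6aKO, against -2.87 to -2.31 in WT, a difference of -1.78 (limma adjusted p 0.00389), and differed by -0.41 in ATF6bKO without passing. Its second probe gave -1.24 in ATF6aKO and -1.08 in ATF6bKO, so the contrast between the knockouts depends on the probe. Cyp2c39 read -2.92 and -2.02 in ATF6aKO DSS and -2.21 and -1.35 in ATF6aKO UT, against -3.72 and -3.49 in WT titled DSS and -2.76 and -3.80 in WT titled UT. It rose by 1.32 in ATF6aKO (limma adjusted p 0.015). It also rose in ATF6bKO, where it read -2.55 and -3.05 in DSS and -1.87 and -2.31 in UT and averaged -2.44, against -3.44 in WT (limma adjusted p 0.0303). Cyp2c23, known as a kidney epoxygenase in the rat, rose by 0.77 in ATF6aKO (limma adjusted p 0.0225), at -3.16 to -2.45, against -3.83 to -3.40 in WT. Cyp2c29 fell by 0.93 in ATF6bKO (limma adjusted p 0.0192), and was at -0.29 in the value table without passing.

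Cyp3a13 read 2.45, 2.63, 2.84 and 3.24 in ATF6aKO and 2.45, 2.39, 2.92 and 2.70 in ATF6bKO, against 2.93, 3.35, 5.04 and 4.51 in WT. It fell by 1.17 in ATF6aKO (limma adjusted p 0.0142) and by 1.34 in ATF6bKO (limma adjusted p 0.015). Cyp3a41a, a form known from female liver, read -8.18, -7.20, -5.70 and -7.42 in ATF6aKO, none above background, and -6.29, -5.97, -5.31 and -5.72 in ATF6bKO, where 1 array was, against -3.91, -3.87, -2.37 and -2.89 in WT. It was at least 6.51-fold lower in ATF6aKO (limma adjusted p 0.000464) and differed by -2.56 in ATF6bKO (limma adjusted p 0.000883), where the normexp value was -0.04 and did not pass. The smallest ATF6aKO difference over the alternatives was -0.68, which passed, so the bound holds under the main scaling only. Cyp4a12a, a fatty acid hydroxylase, read -6.82 to -5.82 in ATF6aKO and -6.47 to -5.47 in ATF6bKO, none above background, against -4.24 to -3.41 in WT. It was at least 4.14-fold lower in ATF6aKO (limma adjusted p 0.00044) and at least 3.13-fold lower in ATF6bKO (limma adjusted p 0.00205), although under normexp correction the differences were -0.22 and 0.34 and neither passed. Cyp3a41a and Cyp4a12a met the background condition only through WT groups, and so had to differ. The hepatocyte marker list, set beside these liver forms, had a summed level of 0.02 to 0.89 in the knockouts, against 1.23 to 2.04 in WT. Fgb, Fga and Serpina1a were not among the genes tested. Of the 5 measured, 2 fell and none rose in each knockout, beside 35.3% of all genes called in ATF6aKO and 29.3% in ATF6bKO. Differences of the 5 ran from -1.39 to 0.66 in ATF6aKO and from -1.17 to 0.31 in ATF6bKO. Apob, which enterocytes also make, averaged -0.02 in ATF6aKO and 0.34 in ATF6bKO, against 1.37 in WT, whereas Alb and Apoa2 differed by -0.23 and -0.16 in ATF6aKO without passing, and by -1.17 (passing) and -0.60 (not passing) in ATF6bKO.

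**Figure D4:**
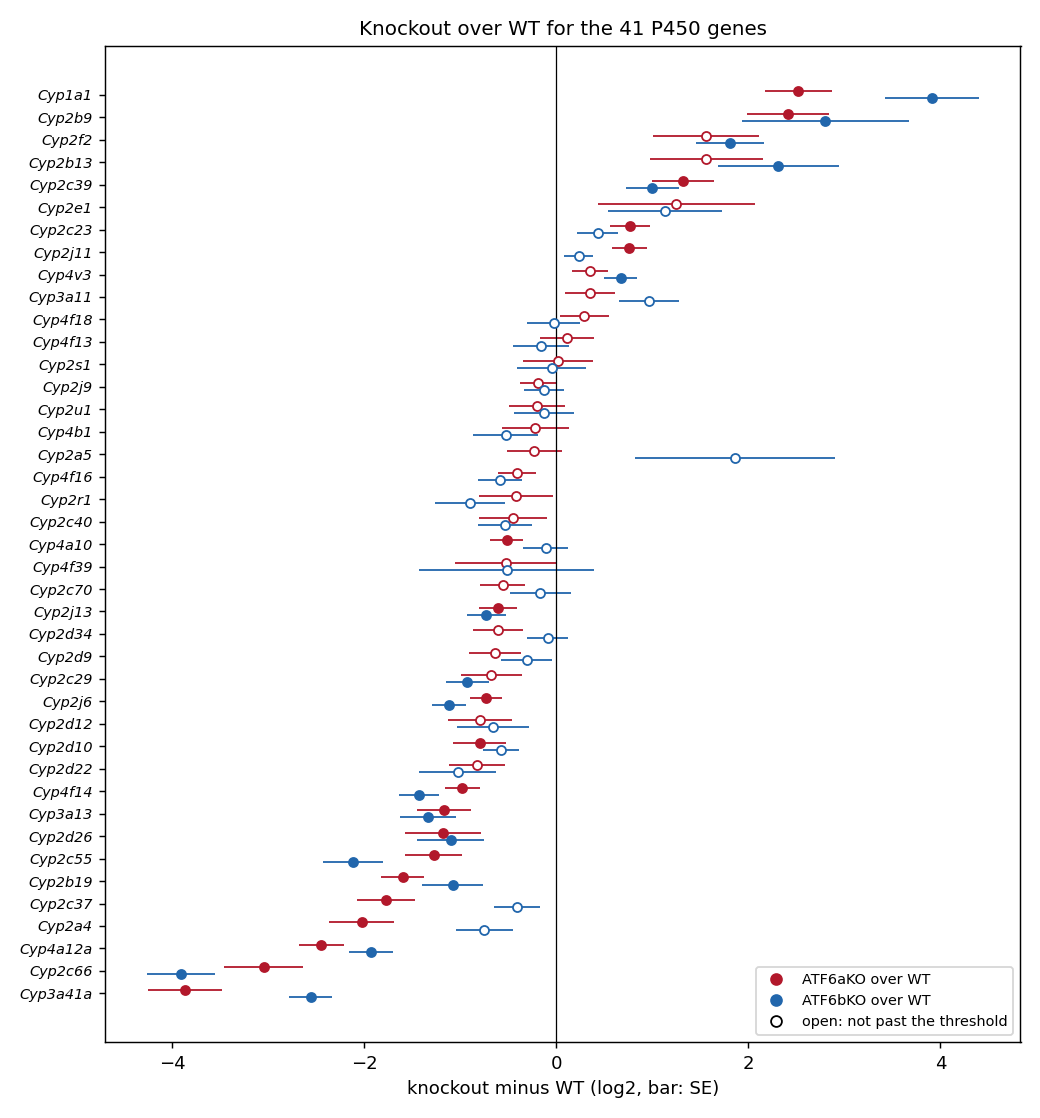
Difference in log2 level, knockout minus WT (x axis), for each of the 41 P450 genes (rows, ordered by the ATF6aKO difference), red for ATF6aKO and blue for ATF6bKO, with SE bars; filled points passed at an adjusted p under 0.05 and open points did not. Cyp3a41a and Cyp2c66 lie farthest to the left and Cyp1a1 farthest to the right in both knockouts, which share the same 4 WT arrays.

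The remaining calls lay in several subfamilies. Cyp4f14 read 2.59 to 3.42 in ATF6aKO and 2.65, 2.08, 2.60 and 2.92 in ATF6bKO, against 3.68, 3.93, 3.93 and 4.44 in WT, and fell by 0.98 in ATF6aKO (limma adjusted p 0.00588) and by 1.43 in ATF6bKO (limma adjusted p 0.00388). Cyp2j6 fell by 0.73 in ATF6aKO (limma adjusted p 0.0122) and by 1.12 in ATF6bKO (limma adjusted p 0.00505), and passed in neither in the value table, at -0.07 and -0.48. Cyp2j13 fell by 0.61 in ATF6aKO (limma adjusted p 0.0413) and by 0.73 in ATF6bKO (limma adjusted p 0.0304), the values being 0.05 and -0.09 in the authors' value table and -0.33 and -0.32 with normexp, none passing. A second Cyp2j13 probe gave 0.01 and 0.30. Cyp2j11 read -4.31, -4.16, -4.11 and -4.51 in ATF6aKO, against -5.26, -5.14, -4.78 and -4.97 in WT, and rose by 0.76 (limma adjusted p 0.0132). In ATF6bKO, Cyp2f2 read 2.23, 2.16, 2.52 and 2.11, against 1.20, 1.29, -0.59 and -0.10 in WT, and rose by 1.81 (limma adjusted p 0.0107). Cyp4v3, the relative of human CYP4V2, rose by 0.67 there (limma adjusted p 0.0253). Cyp2a4 was at -7.35 to -5.62 in ATF6aKO, where 1 of 4 arrays was above background, against -4.69 to -4.43 in WT, a difference of -2.03 (limma adjusted p 0.0035) that was -0.08 under normexp correction and did not pass. Cyp2d26 differed by -1.18 in ATF6aKO (limma adjusted p 0.0474) and by -1.10 in ATF6bKO (limma adjusted p 0.0476), with the DSS arrays of each knockout below all WT arrays, and passed in neither with quantile normalization (limma adjusted p 0.0512 and 0.0597) or in the value table (-0.52 and -0.46). Cyp2d10 and Cyp4a10 fell by 0.80 and 0.52 in ATF6aKO (limma adjusted p 0.0496 and 0.0435), and Cyp4a10, a PPAR alpha target whose probe the older array version names Cyp4a31, was at 0.01 under normexp correction and 0.14 in the value table, where Cyp2d10 was at -0.14, none of these passing. Kept through every removal of 1 array were 14 of the 19 calls in ATF6aKO, the exceptions being Cyp4a10, Cyp2d10, Cyp2j13, Cyp2d26 and Cyp2c23. In ATF6bKO 9 of the 17 were kept, namely Cyp1a1, Cyp2c55, Cyp2c66, Cyp2f2, Cyp2j6, Cyp3a13, Cyp3a41a, Cyp4a12a and Cyp4f14.

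The proteins that P450 enzymes depend on were compared between DSS and UT in the knockouts. Of 9 measured redox partners, which deliver electrons, none rose and 2 fell, Fdxr by 0.68 and Cyb5b by 0.43 (limma adjusted p 0.00893 and 0.0134). That list covers P450 enzymes of any family and was not restricted to partners of families 1 to 4. Whether these 2 serve the members was not tested. Of 15 genes of haem synthesis and breakdown, the haem-degrading Hmox1 rose by 1.21 (limma adjusted p 0.00302) and the synthesis enzymes Ppox, Cpox and Urod fell by 0.64, 0.53 and 0.34. Of 21 regulators that control P450 genes 2 rose and 4 fell. Cebpb, an inflammatory transcription factor, rose by 1.14, and Nr1h4, the bile acid receptor, by 0.35. Vdr, the vitamin D receptor, fell to a mean level of 2.89 in DSS, against 3.89 in UT, and Ppara, the fatty acid receptor, fell by 0.97 and Rxrb, a retinoid X receptor, fell by 0.54, with limma adjusted p between 0.00194 and 0.039 over these 5. Beside these counts stand 29.1% of all genes called.

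Other enzymes and transporters of foreign compounds were compared in the same way. Of 27 measured phase I enzymes outside the P450 family 6 rose and 6 fell, among them the retinal dehydrogenase Aldh1a3, higher by 2.03 (limma adjusted p 0.0025), while Aldh1b1 and Fmo4 fell by 1.25 and 1.13 on the log2 scale (limma adjusted p 0.00205 and 0.00654). Of 14 measured P450 genes of families 5 and above, which mostly make or degrade sterols, steroids and retinoids, 6 rose and 1 fell. Cyp7b1, an oxysterol hydroxylase, rose by 1.21 (limma adjusted p 0.00474), the retinoic acid hydroxylase Cyp26b1 by 1.17 (limma adjusted p 0.0294) and the steroid hydroxylase Cyp17a1 by 0.83 (limma adjusted p 0.0189), while Cyp39a1, another oxysterol hydroxylase, fell by 1.12 (limma adjusted p 0.00188). Cyp11a1, which starts steroid synthesis, was higher by 1.51 (limma adjusted p 0.0149) with 3 of 4 DSS arrays and 1 of 4 UT arrays above background. Of 13 transporters 1 rose and 2 fell, among them the uptake carrier Slco2b1, which rose by 0.56, and the efflux pump Abcb1a, which fell by 0.64 (limma adjusted p 0.0218 and 0.0274). Beside the counts of these lists stand 29.1% of all genes called, 13.3% higher and 15.8% lower.

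Of the 41 members 8 passed in none of the 7 comparisons. They were Cyp2c40, Cyp2c70, Cyp2d22, Cyp2e1, Cyp2u1, Cyp3a11, Cyp4f18 and Cyp4f39. Their DSS differences in the knockouts ran from -0.66 for Cyp2d22 to 0.47 for Cyp4f18, and a p that misses the threshold does not show that levels were equal. Cyp3a11, the main drug-inducible Cyp3a enzyme of mouse liver, lay between -4.87 and -2.61 over the 12 arrays and differed by 0.96 in ATF6bKO over WT (limma adjusted p 0.0518). Cyp2c70, which makes muricholic acids in mouse liver, lay between -3.63 and -2.10.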

How the data were processed

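RNA from 12 colon samples was labelled with Cy3 and hybridised to Agilent 1-colour arrays. Per the file headers, the authors quantified each scan with Agilent Feature Extraction (version 10.7.1.1, per the submitters' processing notes), and the deposited intensity of each spot is the processed signal, background-subtracted and not scaled between arrays. The authors' deposited value table holds log2 values centred per probe, with the scaling between arrays unknown. In 8 of its 12 columns the values were those of another sample's array: the 4 WT columns held arrays of the other WT group, and the 4 ATF6aKO columns held the other replicate of the same group. By its own column labels the table would turn every WT sign. It was therefore used as an alternative only, with columns matched to arrays by their values.

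Spots flagged as outliers (54 to 108 per array) and control spots were left out. Of 41174 probes 30428 were well above background on both arrays of at least 1 group, the condition for testing. Probes were named through RefSeq accessions (GRCm38.p6), which matched 25193 probes (61.2%) to 17332 genes, and the brightest passing probe of each gene was kept, giving 23239 genes or unnamed transcripts, 14595 with a symbol. For Cyp4a10 and Cyp2u1 the 2 array versions disagree on the name. Levels were log2 processed signals minus the array's log2 75th percentile. Differences were tested with lmFit and eBayes in limma 3.58.1 (R 4.3.3), with Benjamini-Hochberg adjustment over all 23239. The pooled knockout comparison used the 8 knockout arrays with the genotype as a term, each knockout against WT used 8 arrays with treatment by title as a term, and the others were contrasts in 1 fit of 12 arrays. The procedure was tested on simulated data. At 2 arrays per group, the number of arrays limits the precision.

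A fold against a group with no array above background is given as "at least", computed against the higher, per array, of the dimmest signal counted as above background and the probe's own. Such a bound holds under the main scaling only. Every called member is named. The members, lists and rules were chosen with earlier results of these data known. Alternatives were quantile normalization, the value table, no and strict filters on dim probes, the mean of a gene's probes, other sample sets in the fit, WT groups by descriptions, the replicate number as a block and single arrays left out. Normexp on mean signals, which are not among the columns used here, was not run, and normexp on median signals (offset 50) was added after seeing the data. A regulator and a transporter among the listed genes, and a promoter motif, are not reported here.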

Additional observations from a re-analysis of the deposited data

Results flagged for a closer look

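Cyp2s1 differed in direction between genotypes. It was 1.09 higher in WT titled DSS than in WT titled UT on the log2 scale, with both titled DSS arrays above both titled UT arrays, while knockout DSS minus knockout UT was -0.63, with all 4 DSS arrays below all 4 UT arrays. The difference between these effects was not tested, and under the WT descriptions in place of the titles the WT difference was -1.09, the same sign as in the knockouts.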

How the results depend on the processing

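Among single members, 685 of 939 values under an alternative kept their direction and their side of the threshold, 242 kept the direction without passing and 12 turned. Under WT descriptions the WT differences turn by construction, to 2.18 for Cyp2c66, -1.59 for Cyp2f2, 1.37 for Cyp2r1, -1.09 for Cyp2s1, 1.64 for Cyp3a13 and 1.26 for Cyp4b1. Under normexp Cyp2b13 was at 0.01 (knockout DSS over UT), Cyp4a10 at 0.01 (ATF6aKO over WT), and Cyp2b19 at 0.05 and Cyp4a12a at 0.34 (ATF6bKO over WT). In the value table Cyp2j13 was at 0.05 and Cyp4a10 at 0.14 (ATF6aKO over WT). The cause was not tested. With no filter on dim probes, which adds tests, the members called were 6 in place of 13 for knockout DSS over UT, 0 in place of 1 for ATF6aKO and 1 in place of 4 for ATF6bKO. Quantile normalization gave 2 for ATF6aKO, and 1 passed for ATF6bKO in the value table. A fit of the compared arrays only, which has fewer residual degrees of freedom, gave 0 for ATF6bKO and 1 in place of 6 for the WT groups. Leaving out 1 array at a time, the lone array being assumed to vary like the other groups, gave 3 to 11 for the pooled knockouts, 0 in each removal for ATF6aKO, 0 to 3 for ATF6bKO, 2 to 9 for WT, 0 to 1 for the difference in response, 14 to 20 for ATF6aKO over WT and 10 to 17 for ATF6bKO over WT. Counts over all genes moved by more than 1.5 times for ATF6aKO DSS over UT (1472, with 693 unfiltered and 563 in the compared arrays only), ATF6bKO DSS over UT (3000, with 1790 under normexp and 1812 in the compared arrays only), WT (7380, with 636 in the compared arrays only) and ATF6bKO over WT (6805, with 12367 under normexp, 10905 in the value table and 11748 in a fit of 12 arrays). Leaving out 1 array took them as low as 3857 of 6761 for the pooled knockouts, 183 for ATF6aKO, 1089 for ATF6bKO, 2983 for WT, 5395 of 8196 for ATF6aKO over WT and 4129 for ATF6bKO over WT, and to 83 in place of 0 for the difference in response without ATF6bKO DSS replicate 1. Same-numbered arrays did not deviate together (r = 0.0746 in ATF6aKO, -0.0177 in ATF6bKO and 0.0106 in WT, across genes), so the numbers were not taken as pairs. With the replicate number as a block, 12 members passed for the pooled knockouts, 1 for ATF6aKO, 3 for ATF6bKO, 6 for WT, 0 for the difference in response, 17 for ATF6aKO over WT and 14 for ATF6bKO over WT, and the block took all-gene counts to 590 for ATF6aKO DSS over UT and 1937 for ATF6bKO DSS over UT. The slide as a block is the genotype term and was not run apart. Members near background, such as Cyp2a5 and Cyp2b13, have only bounds.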
